A study of Mus musculus with 8 samples.

Results

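Activin, anti-Müllerian hormone (AMH) and ALK7 signalling was followed through 10 genes in the uterus of mice with conditional deletion of *Ezh2*. The genes were 3 ligand genes (*Amh*, *Inhba*, *Inhbb*), 3 type II receptor genes (*Amhr2*, *Acvr2a*, *Acvr2b*), 2 type I receptor genes (*Acvr1*, *Acvr1c*) and 2 genes of secreted inhibitors (*Fst*, *Fstl3*). They were chosen by symbol out of 27179 genes counted, with earlier results of these data known. Of the 10, 9 were among the 16658 genes tested, with *Amh* under the filter on low counts. *Acvr1c* was higher in *Ezh2 Amhr2*-Cre cKO uteri, *Inhba* and *Amhr2* were lower, and the other 6 genes tested did not pass the test. The summed markers of fat cells were higher than in every control in 3 of the 4 cKO uteri. With a score from these markers as a covariate, a fit that rests largely on the remaining cKO uterus, none of the 3 calls held. The log2 fold change of *Acvr1c* then went from 1.25 to 0.63, that of *Inhba* from -0.71 to -0.59 and that of *Amhr2* from -0.73 to -0.97, with larger standard errors for all 3.

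Activins are dimers of the beta subunits made from *Inhba* and *Inhbb*. They bind the type II receptors ACVR2A and ACVR2B, which recruit the type I receptors ACVR1B (ALK4) or ACVR1C (ALK7), and the signal passes through SMAD2 and SMAD3. AMH binds only AMHR2 and signals with ACVR1 (ALK2) or BMPR1A through the other receptor-regulated SMADs, and it is known for the regression of the Müllerian duct, the precursor of the uterus, in male embryos. Follistatin (*Fst*) and its relative FSTL3 bind activins and keep them from their receptors. In the adult uterus, follistatin, ACVR1 and activin are known for their parts in receptivity and decidualization, and ALK7 is best known from fat cells.

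RNA-seq libraries were made from whole uteri at postnatal day 10 (PD10), 1 library per mouse, with 4 mice per genotype. All 8 mice carried the floxed *Ezh2* allele (*Ezh2* f/f) on a mixed C57BL/6/129SvEv background. The 4 cKO mice also carried *Amhr2*-Cre (Acre in the labels), and the 4 control (Ctrl) mice had no Cre. EZH2 is the enzyme of Polycomb repressive complex 2, which methylates histone H3 and is known to act at CpG-rich promoters. Cre is made from the *Amhr2* locus in cells of mesenchymal origin, rather than in epithelial cells. No group with Cre and intact *Ezh2* was among the samples, so the effects of the Cre allele and of *Ezh2* loss cannot be told apart.

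Between 25287141 and 36685807 reads per library were counted on genes, and 3 counts, the upper limit for a gene with none, stood for 0.0824 to 0.117 CPM, that is counts scaled to the library size. Values below are CPM scaled with edgeR's TMM method, as mean ± SD over 4 mice, and log2 fold changes compare cKO with Ctrl by edgeR's quasi-likelihood test with Benjamini-Hochberg adjustment over all genes tested. *Ezh2*, counted over its whole length, had a log2 fold change of -0.29 (SE 0.13, adjusted p = 0.247). Adipocyte markers separated the libraries, with a summed level of 6.64 to 17.4 CPM in Ctrl, 108 to 242 CPM in cKO replicates 1 to 3 and 8.51 CPM in cKO replicate 4. Smooth muscle markers summed to 6830 to 8710 CPM and epithelial markers to 1040 to 1460 CPM, and these markers are not particular to the uterus. Oviduct markers summed to 3 to 4.1 CPM in Ctrl and 2.42 to 3.18 CPM in cKO. In whole tissue, fewer cells of a type and less RNA per cell cannot be told apart.

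An adjusted p under 0.05 was reached by 3 of the 9 genes tested, against 5.34% of all genes, with 1 of the 9 higher (2.62% of all genes) and 2 lower (2.71%). The libraries of the genotypes did not overlap for the same 3 genes, against 12.3% of all genes (5.9% higher in cKO and 6.43% lower). A fold change over 2 as well was reached by 1 of the 9, *Acvr1c*, against 1.3% of all genes (0.666% higher and 0.636% lower). The median log2 fold change of the 9 genes was -0.10, beside 0.00 over all genes.

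**Figure D1:**
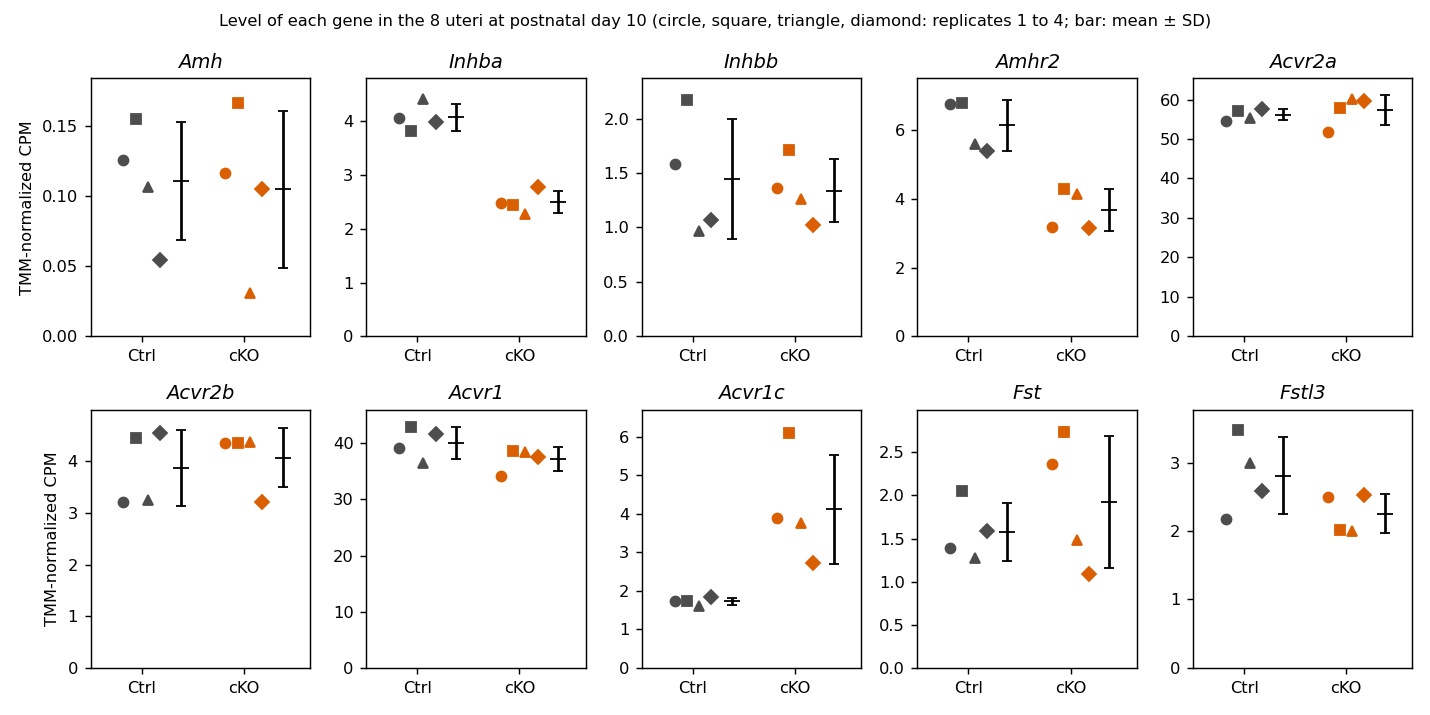
TMM-normalized CPM (y axis, from 0) of the 10 genes in 4 Ctrl (grey) and 4 cKO (orange) uteri at PD10, with the symbol giving the replicate and the bar the mean ± SD. *Inhba* and *Amhr2* sit lower in every cKO uterus and *Acvr1c* sits higher in every cKO uterus, while the libraries of the other 7 genes overlap.

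Sequence before a transcript start is shown for the 3 genes that passed, because EZH2 is known for CpG-rich promoters. The windows come from RefSeq (GRCm38.p6), lie before 1 RefSeq transcript start of the gene and read 5′ to 3′ on the strand of the gene. CG dinucleotides, which read the same on both strands, are in capitals. Only bases outside the exons that GENCODE M21 gives for the gene are printed. The windows of *Inhba* and *Amhr2* lie inside the spans of these genes given below, before a start downstream of the outermost one. The *Acvr1c* start used is also downstream of the outermost one, by less than the window, and the printed bases leave out the 137 bases next to it. *Inhba* is on the plus strand (chr13:16011601-16011850), *Amhr2* on the plus strand (chr15:102445117-102445366) and *Acvr1c* on the minus strand (chr2:58357896-58358008). For *Acvr1c*, 113 of the 250 bases lie outside a GENCODE exon, and the last of them is the first base of the gene's span given below.
Inhba: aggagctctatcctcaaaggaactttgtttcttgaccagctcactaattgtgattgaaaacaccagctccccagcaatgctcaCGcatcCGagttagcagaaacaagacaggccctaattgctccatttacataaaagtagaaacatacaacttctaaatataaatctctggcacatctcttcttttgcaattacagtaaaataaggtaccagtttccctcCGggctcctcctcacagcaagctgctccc
Amhr2: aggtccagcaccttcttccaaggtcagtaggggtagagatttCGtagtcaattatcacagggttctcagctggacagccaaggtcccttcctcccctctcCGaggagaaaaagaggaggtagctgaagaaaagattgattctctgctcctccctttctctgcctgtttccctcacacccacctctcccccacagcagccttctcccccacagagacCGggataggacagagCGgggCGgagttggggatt
Acvr1c: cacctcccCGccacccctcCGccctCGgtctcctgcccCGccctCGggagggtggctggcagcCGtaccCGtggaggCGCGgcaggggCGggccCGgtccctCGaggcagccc

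Over the 250 bases before the start, the *Acvr1c* window held 32 CG dinucleotides, more than 95.4% of the 32851 windows in the table. The *Amhr2* window held 5, more than 44.4% of windows, and the *Inhba* window held 3, more than 29.0% of windows. Over all windows the median was 6, with quartiles of 2 and 16, and 92.1% held at least 1. *Acvr1c* has a second RefSeq start, inside the gene, and its window held 2 CG dinucleotides. The starts lie at different places within their genes, and the windows of the 3 genes do not compare like with like. Of the 5 other genes with a window, none of which passed the test, *Acvr2a* held 49, *Acvr1* 46, *Acvr2b* 24, *Fstl3* 22 and *Inhbb* 21, so a CG-rich window was shared by genes that did not pass. *Amh* and *Fst* had no window in the table. These counts describe the sequence only.

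Among the ligands, *Inhba* fell and *Inhbb* did not pass the test. *Inhba* (Entrez 16323, chr13:16004256-16031609 of GRCm38), which encodes the beta A subunit of activin A and inhibin A, was at 4.07, 3.83, 4.42 and 3.98 CPM in Ctrl replicates 1 to 4 and at 2.49, 2.44, 2.28 and 2.77 CPM in cKO replicates 1 to 4. Every cKO uterus lay below every Ctrl uterus, and each group was narrow, with a coefficient of variation of 6.19% in Ctrl and 8.13% in cKO that is below the 8.97% and 11.7% from counting alone. The mean went from 4.08 ± 0.252 to 2.49 ± 0.203 CPM (SD, n = 4), which is 0.612 of the control level. The log2 fold change was -0.71 (SE 0.14, 95% interval -1.01 to -0.41, adjusted p = 0.011, edgeR). The exact permutation test over the 70 arrangements of the libraries, two-sided on log2(CPM + 0.1), gave p = 0.029, the smallest it can give. *Inhba* kept an adjusted p of at most 0.0414 when any 1 library was left out, and lost the call with the adipocyte markers, described further on, as a covariate (-0.59, adjusted p = 0.308).

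*Inhbb* (Entrez 16324, chr1:119415463-119422248), the beta B subunit of activin B, was at 1.58, 2.17, 0.963 and 1.07 CPM in Ctrl and 1.36, 1.71, 1.26 and 1.02 CPM in cKO. The groups overlapped, and the range within Ctrl was wider than the difference of the means, 1.44 ± 0.551 and 1.34 ± 0.286 CPM (SD, n = 4). Their log2 fold change was -0.10 (SE 0.28, adjusted p = 0.871), with a 95% interval from -0.70 to 0.50 that reaches down almost to the change seen for *Inhba*. Its sign turned without Ctrl replicate 2 (0.15) and without cKO replicate 4 (0.01).

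*Amh* (Entrez 11705, chr10:80805240-80807679) had 4, 4, 3 and 2 counts in Ctrl and 3, 5, 1 and 3 counts in cKO. These are 0.126, 0.155, 0.107 and 0.0549 CPM in Ctrl and 0.117, 0.167, 0.0308 and 0.105 CPM in cKO, at or near the floor of 3 counts in each library. The groups overlapped, and the mean of log2(CPM + 0.1) differed by -0.06 (exact permutation test, p = 0.77). A difference in *Amh* was not detectable at this depth. Granulosa cells of the ovary are the known source of AMH in females, and their marker *Fshr* had 0 counts in all 8 libraries. Over the 8 ovarian markers the summed level was 58.9 to 68.7 CPM in Ctrl and 52.3 to 68.3 CPM in cKO, and most of it was *Foxl2*, which uterine mesenchyme also makes.

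Among the type II receptors, *Amhr2* fell while both activin receptors did not pass the test. *Amhr2* (Entrez 110542, chr15:102445002-102454640), the receptor specific for AMH, was at 6.78, 6.81, 5.60 and 5.41 CPM in Ctrl and at 3.18, 4.28, 4.16 and 3.15 CPM in cKO. Every cKO uterus lay below every Ctrl uterus. The mean went from 6.15 ± 0.749 to 3.69 ± 0.61 CPM (SD, n = 4), which is 0.601 of the control level. The log2 fold change was -0.73 (SE 0.15, 95% interval -1.05 to -0.40, adjusted p = 0.0148, edgeR). The exact permutation test gave p = 0.029. Without Ctrl replicate 1 the log2 fold change was -0.67 (adjusted p = 0.0605), and without cKO replicate 1 it was -0.66 (adjusted p = 0.0525). The call was lost in both, with the fold change near the value of all 8 libraries and the groups still apart. Without cKO replicate 4 the log2 fold change was also -0.66, and the call was kept (adjusted p = 0.0211, edgeR).

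*Amhr2* is also the locus from which Cre is made, and only cKO mice carried that allele. The counts are over the whole gene and do not tell the alleles apart, so a lower output of the Cre-bearing allele, a response to *Ezh2* loss and fewer *Amhr2*-expressing cells cannot be told apart for this gene. The nearest tested genes on either side did not pass the test. *Sp1*, 8.60 kb away, had a log2 fold change of -0.15 (adjusted p = 0.196), and *Prr13*, 4.53 kb away, had 0.01 (adjusted p = 0.944). Stromal, smooth muscle and mesothelial markers, of tissues that descend from the Müllerian mesenchyme or line it, summed in cKO to values overlapping those in Ctrl (smooth muscle 7630 to 8600 CPM in cKO and 6830 to 8710 CPM in Ctrl). Of 5 stromal markers 1 passed the test, *Hoxa10*, with a log2 fold change of -0.62, and of 5 smooth muscle markers 0 passed.

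*Acvr2a* (Entrez 11480, chr2:48814109-48903264), a type II receptor for activins, was at 54.6, 57.1, 55.4 and 57.5 CPM in Ctrl and 51.8, 57.9, 60.2 and 59.5 CPM in cKO. The groups overlapped, and the log2 fold change was 0.03 (SE 0.06, adjusted p = 0.805). Its 95% interval, -0.10 to 0.16, lies well inside the changes of *Inhba* and *Amhr2*. The gene overlaps *Orc4* by 0.44 kb, and reads in that stretch are uncertain because the strand setting of the counting is not given in the sources used here.

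*Acvr2b* (Entrez 11481, chr9:119401583-119442148), the other type II receptor for activins, was at 3.22, 4.45, 3.25 and 4.56 CPM in Ctrl and 4.35, 4.35, 4.37 and 3.22 CPM in cKO. Ctrl replicates 1 and 3 and cKO replicate 4 were low and the other 5 libraries were close together, so the groups overlapped. This gave a log2 fold change of 0.07 (SE 0.17, 95% interval -0.29 to 0.44, adjusted p = 0.837).

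Among the type I receptors, *Acvr1c* rose and *Acvr1*, its neighbour on the chromosome, did not pass the test. *Acvr1c* (Entrez 269275, chr2:58267453-58357896), which encodes ALK7, was at 1.73, 1.74, 1.61 and 1.84 CPM in Ctrl and at 3.88, 6.09, 3.76 and 2.73 CPM in cKO. Every cKO uterus lay above every Ctrl uterus, with cKO replicate 2 highest and cKO replicate 4 nearest to Ctrl. The mean went from 1.73 ± 0.096 to 4.12 ± 1.41 CPM (SD, n = 4), a ratio of 2.38. The log2 fold change was 1.25 (SE 0.22, 95% interval 0.76 to 1.73, adjusted p = 0.00653, edgeR), and the exact permutation test gave p = 0.029. Behind these values stood 45 to 67 counts per Ctrl library and 78 to 182 per cKO library. The coefficient of variation was 5.55% in Ctrl, below the 13.7% that counting alone gives, so the close agreement of the controls is narrower than the depth can resolve, and it was 34.4% in cKO. Without cKO replicate 2 the log2 fold change was 1.00 (adjusted p = 0.0132), which is not over 2-fold, and over all single libraries left out it ran from 1.00 to 1.40 with an adjusted p of at most 0.0261. With the adipocyte markers as a covariate it was 0.63 (adjusted p = 0.409), and the call was lost.

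*Acvr1* (Entrez 11477, chr2:58446438-58566828), which encodes ALK2 and lies 88.5 kb from *Acvr1c*, was at 39.2, 42.9, 36.5 and 41.6 CPM in Ctrl and 34.1, 38.6, 38.4 and 37.6 CPM in cKO. The groups overlapped (40.0 ± 2.82 and 37.2 ± 2.07 CPM, SD, n = 4), and the log2 fold change was -0.11 (SE 0.07, 95% interval -0.26 to 0.04, adjusted p = 0.403). On the other side of *Acvr1c*, the nearest tested gene was *Cytip*, 71.9 kb away, at -0.15 (adjusted p = 0.612). Neither neighbour passed the test.

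Neither inhibitor passed the test. *Fst* (Entrez 14313, chr13:114452262-114458989), the activin-binding protein follistatin, was at 1.39, 2.05, 1.28 and 1.59 CPM in Ctrl and 2.37, 2.74, 1.48 and 1.09 CPM in cKO. cKO replicates 1 and 2 were above every Ctrl uterus and cKO replicate 4 was below every Ctrl uterus. This gave a log2 fold change of 0.28 (SE 0.28, 95% interval -0.33 to 0.89, adjusted p = 0.598), which was 0.06 without cKO replicate 2 and 0.48 without cKO replicate 4. *Fstl3* (Entrez 83554, chr10:79777274-79782630), which binds activins in the same way, was at 2.18, 3.48, 3.00 and 2.58 CPM in Ctrl and 2.49, 2.01, 2.00 and 2.52 CPM in cKO. The groups overlapped, since Ctrl replicate 1 lay among the cKO uteri, and the log2 fold change was -0.31 (SE 0.18, 95% interval -0.71 to 0.09, adjusted p = 0.35).

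Levels were compared between genes only after division by the length of all annotated exons (CPM per kb). In Ctrl the order was *Acvr2a* (9.88), *Acvr1* (8.29), *Amhr2* (3.07), *Fstl3* (1.15), *Acvr2b* (0.985), *Inhba* (0.638), *Fst* (0.344), *Inhbb* (0.34) and *Acvr1c* (0.186). The ranges of *Fstl3* and *Acvr2b* overlapped, as did those of *Fst* and *Inhbb*, and the other neighbours in the order were apart. In cKO the order of the upper ranks was *Acvr2a* (10.1), *Acvr1* (7.70) and *Amhr2* (1.84), then *Acvr2b* (1.04) and *Fstl3* (0.922), whose ranges overlapped. At the lower end stood *Acvr1c* (0.443), *Fst* (0.418), *Inhba* (0.39) and *Inhbb* (0.314), each overlapping its neighbour. *Acvr1c* thus moved from the lowest of the 9 genes, apart from all others, into the range of the activin subunits and follistatin.

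**Figure D2:**
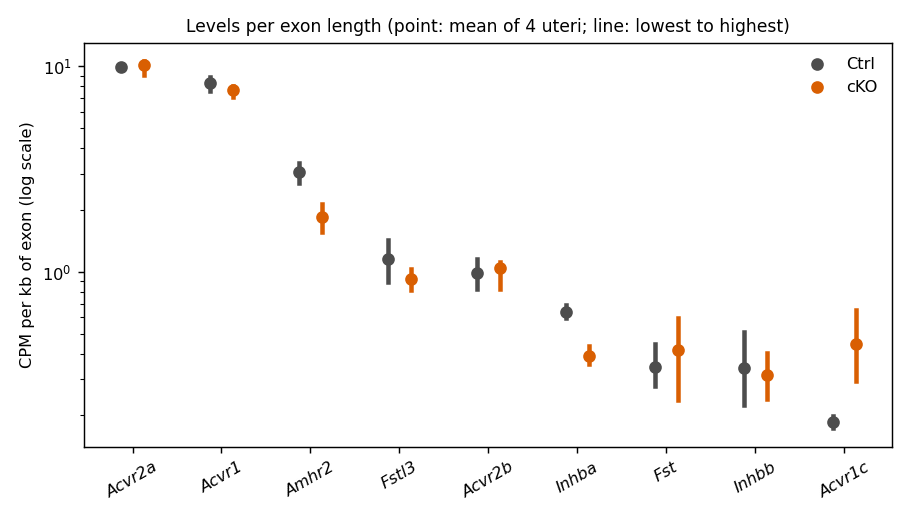
CPM per kb of exon (y axis, log scale) for the 9 genes tested, in order of the Ctrl mean, with Ctrl in grey and cKO in orange. Points are means of 4 uteri and lines run from the lowest to the highest uterus, and *Acvr1c* stands at 0.186 in Ctrl and 0.443 in cKO.

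ACVR1B (ALK4) is the more widely expressed type I receptor for activins, and *Acvr1b* was at 28.2, 30.3, 30.1 and 27.5 CPM in Ctrl and 32.3, 33.8, 33.1 and 32.1 CPM in cKO. Every cKO uterus lay above every Ctrl uterus, but the gene did not pass the test (log2 fold change 0.18, SE 0.06, adjusted p = 0.117). Per kb of exon, *Acvr1c* stood at 2.92%, 2.73%, 2.54% and 3.18% of *Acvr1b* in Ctrl and at 5.72%, 8.57%, 5.40% and 4.05% in cKO. The share of ALK7 transcript was therefore higher in every cKO uterus and small beside ALK4 in all of them. Over the activin beta subunits, the ratio of *Inhba* to *Inhbb* per kb was 1.71, 1.17, 3.05 and 2.47 in Ctrl and 1.22, 0.949, 1.20 and 1.81 in cKO, which overlap. The ratio of *Fst* to *Inhba* per kb was 0.475, 0.745, 0.403 and 0.556 in Ctrl and 1.33, 1.56, 0.904 and 0.548 in cKO, higher in cKO replicates 1 to 3 and within the Ctrl range in cKO replicate 4.

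*Inha*, the alpha subunit that turns activin subunits into inhibins, was at 5.05, 5.34, 4.50 and 3.95 CPM in Ctrl and 8.70, 8.80, 6.56 and 4.52 CPM in cKO. cKO replicates 1 to 3 were above every Ctrl uterus and cKO replicate 4 was among them. Over all 8 uteri its log2 fold change was 0.60 (SE 0.20, adjusted p = 0.0994), and without cKO replicate 4 it was 0.77 (adjusted p = 0.00952, edgeR).

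Over 49 further genes of the pathway, 40 were tested, 1 rose, 1 fell and 38 did not pass. The 2 calls among 40 genes are near the 5.34% of all genes, and the median log2 fold change was -0.02. Of the 15 tested genes that carry or restrain the signal inside the cell, 0 passed, and none was past 0.21 on the log2 scale in either direction. Without cKO replicate 4, *Zfyve9* (-0.26, adjusted p = 0.0456) and *Smurf2* (-0.20, adjusted p = 0.0336) passed. *Smad2* (-0.06, adjusted p = 0.581) and *Smad3* (-0.02, adjusted p = 0.897) are the carriers of the activin signal and *Smad4* (-0.08, adjusted p = 0.406) is their common partner. Of the 7 tested receptors and co-receptors, 0 passed. Of the 5 tested extracellular inhibitors 0 passed, and their log2 fold changes ran from 0.00 to 0.68 around a median of 0.43. Of 5 genes known to answer SMAD2/3, among them *Pmepa1*, 0 passed.

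The gene that rose was *Id4*, one of 8 genes known to answer SMAD1/5, whose product keeps helix-loop-helix factors from binding DNA. It was at 46.4, 54.6, 48.3 and 45.4 CPM in Ctrl and 58.4, 68.1, 72.5 and 71.1 CPM in cKO, higher in every cKO uterus (log2 fold change 0.47, SE 0.08, adjusted p = 0.00436, edgeR). The gene that fell was *Wif1*, a secreted WNT inhibitor known to respond to AMH in the Müllerian mesenchyme of males. It was at 1.23, 1.28, 1.28 and 0.604 CPM in Ctrl and 0, 0.134, 0.0924 and 0.14 CPM in cKO, lower in every cKO uterus (log2 fold change -3.48, SE 0.48, adjusted p = 0.00111). With 0 to 4 counts per cKO library, the size of that fold change is loosely set. Neither *Id4* nor *Wif1* passed with the adipocyte markers as a covariate, a fit that rests largely on cKO replicate 4. In that uterus *Id4*, at 71.1 CPM, was above every Ctrl uterus, and *Wif1*, at 0.14 CPM, was below every Ctrl uterus. The other 2 of the 3 AMH-responsive genes, *Sp7* (0.21, adjusted p = 0.485) and *Mmp2* (-0.15, adjusted p = 0.235), did not pass. *Wif1* is also a gene of the WNT pathway, and whether its fall is tied to that of *Amhr2* was not tested.

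**Figure D3:**
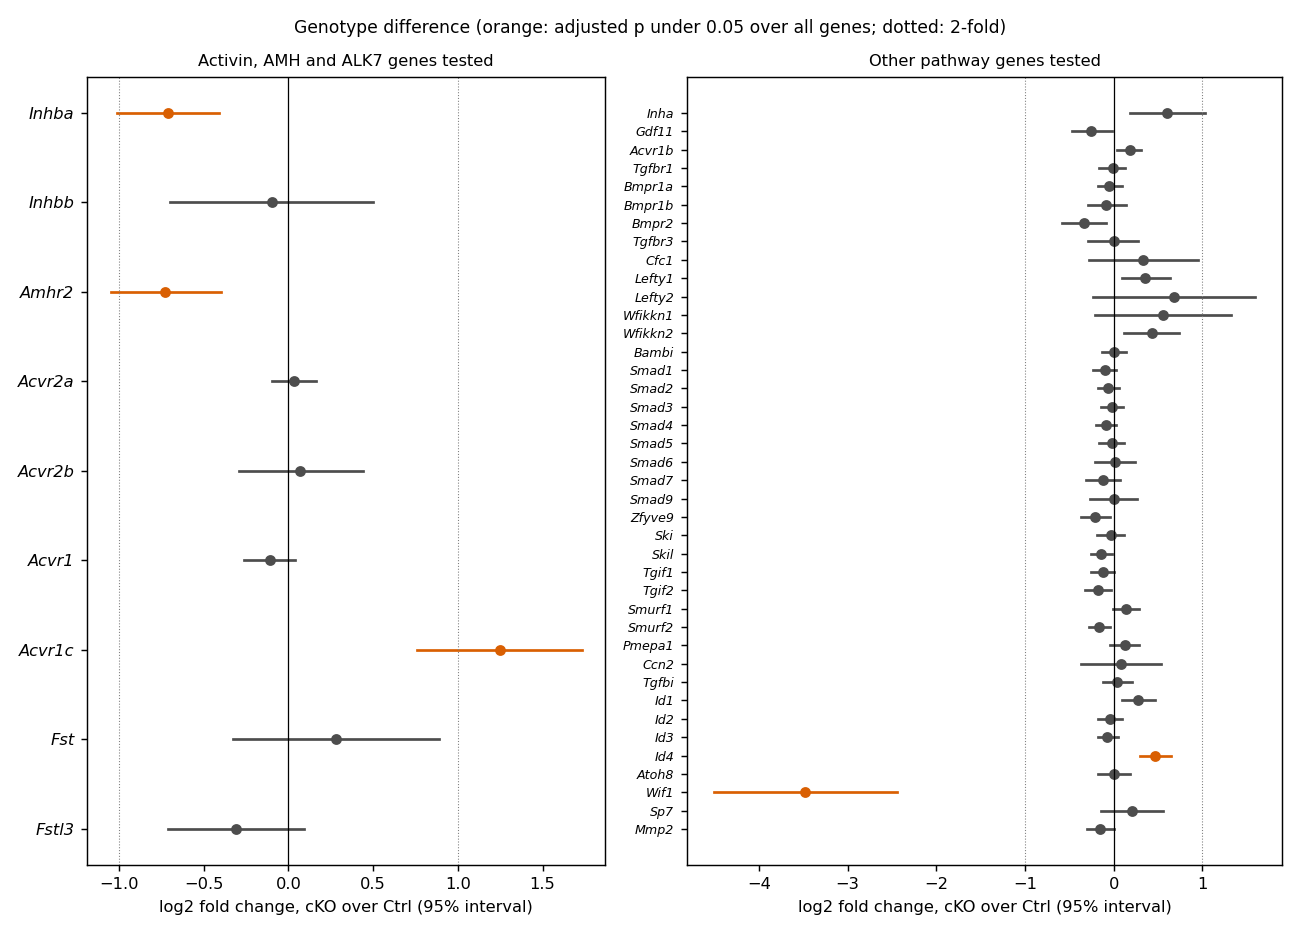
Log2 fold changes of cKO over Ctrl (x axis) with 95% intervals for the 9 genes tested (left) and 40 further pathway genes (right), with orange marking an adjusted p under 0.05 over all genes and dotted lines a 2-fold change. *Acvr1c* is the only gene of the left panel to the right of 0 in orange, at 1.25, and *Wif1* stands far to the left in the right panel, at -3.48.

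ALK7 is known from fat cells, so its levels are given beside the adipocyte markers. Of the 9 markers, 7 were tested and 1 passed, *Adrb3*, an adrenergic receptor of fat cells. Adiponectin (*Adipoq*) was at 0.0631 to 0.387 CPM in Ctrl, at 11.7, 23.7 and 14.4 CPM in cKO replicates 1 to 3 and at 0.035 CPM in cKO replicate 4. The summed level in cKO replicate 4, 8.51 CPM, was within the Ctrl range, although *Fabp4*, at 1.61 CPM there and at most 1.43 CPM in Ctrl, and *Adrb3* were above it. In that uterus *Acvr1c* was at 2.73 CPM, above all 4 Ctrl uteri, of which the highest was at 1.84 CPM. Among the cKO uteri *Adrb3*, *Plin1*, *Plin4*, *Lep* and *Retn* had the order of *Acvr1c*. *Adipoq*, *Fabp4*, *Cidec* and *Cfd* did not, with replicate 3 above replicate 1. Over the genotypes *Adrb3* was at 0.915 to 1.18 CPM in Ctrl, 2.43 to 3.35 CPM in cKO replicates 1 to 3 and 2.10 CPM in cKO replicate 4.

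Within cKO, *Acvr1c* was highest, at 6.09 CPM, in the uterus with the highest summed level, 242 CPM. Within Ctrl it was highest, at 1.84 CPM, in the uterus with the lowest summed level, 6.64 CPM. The Ctrl values varied less than counting alone gives, so their order cannot be read. With the adipocyte score as a covariate, the log2 fold change of *Acvr1c* was 0.63 (SE 0.25, adjusted p = 0.409, edgeR). With cKO replicate 4 alone against the 4 controls it was 0.66 (SE 0.25, adjusted p = 0.593), where the lone library is taken to vary as the controls do. With the covariate, 0 of the 9 genes passed, and of all 16658 genes those past both thresholds went from 217 to 48. The score was -1.54 to -0.5 in Ctrl, 2.66 to 3.94 in cKO replicates 1 to 3 and -1.33 in cKO replicate 4. It nearly follows the genotype, so the covariate fit rests largely on cKO replicate 4, and the 2 fits are not separate checks. *Inhba* was at -0.59 (adjusted p = 0.308) with the covariate and -0.56 (adjusted p = 0.622) with cKO replicate 4 alone, and *Amhr2* was at -0.97 (adjusted p = 0.077) and -0.96 (adjusted p = 0.218). In cKO replicate 4, *Inhba* was at 2.77 CPM, the highest of the cKO uteri, and *Amhr2* at 3.15 CPM, the lowest of them. *Inha*, at 4.52 CPM, and *Fst*, at 1.09 CPM, were not above the controls there. How much of the rise in *Acvr1c* comes with the adipocyte markers was not tested beyond these values.

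Of 5 skeletal muscle markers, 4 were tested and 2 rose, *Myh3* (log2 fold change 4.08, adjusted p = 0.00388, edgeR) and *Tnnt3* (0.80, adjusted p = 0.0295), both higher in every cKO uterus, replicate 4 included. *Myl1*, under the filter, had 0 counts in the 4 Ctrl libraries and 30, 30, 6 and 13 in cKO replicates 1 to 4. The summed level of the 5 markers overlapped, at 43.3 to 74.4 CPM in Ctrl and 38.9 to 60.9 CPM in cKO, most of it *Acta1*. *Ckm* (1.46, adjusted p = 0.0903) and *Acta1* (-0.13, adjusted p = 0.762) did not pass, and both overlapped. Whether the difference in *Myh3*, *Tnnt3* and *Myl1* bears on the rise of *Acvr1c* was not tested.

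**Figure D4:**
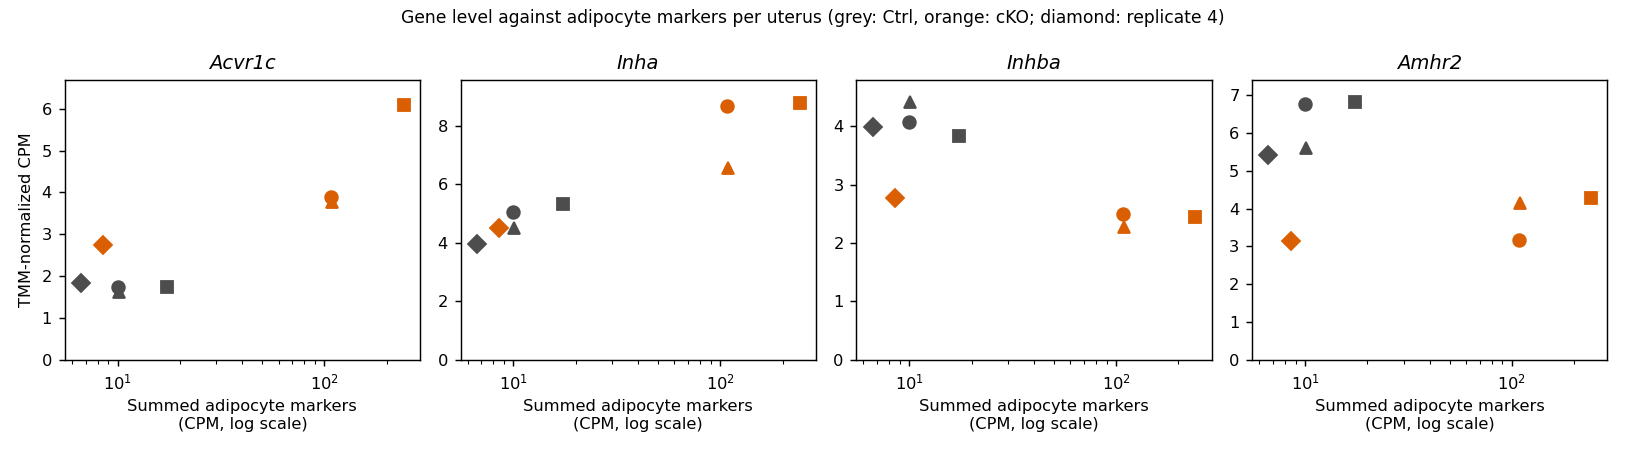
TMM-normalized CPM (y axis, from 0) of *Acvr1c*, *Inha*, *Inhba* and *Amhr2* against the summed CPM of 9 adipocyte markers (x axis, log scale) in each uterus, with Ctrl in grey, cKO in orange and replicate 4 as a diamond. The cKO diamond lies among the controls on the x axis, at 8.51 CPM, and apart from them on the y axis for *Acvr1c*, *Inhba* and *Amhr2* but not for *Inha*.

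For the 3 genes that passed, the genes with the most similar levels were sought among 14455 genes, as Pearson's r over the 8 libraries after removal of the genotype means. This is a description over 8 libraries that share depth and composition. The best of 14455 genes over so few libraries can reach a high r by chance, and the chance level was not computed. Closest to *Acvr1c* was *Lpl*, lipoprotein lipase of fat and muscle, with r = 0.99, followed by *Pvt1* and *Gcfc2*, both at 0.98. *Lpl* had a log2 fold change of 0.63 (adjusted p = 0.0845). Closest to *Amhr2* were *Pdpn* (0.99), *Stk38* (0.98) and *Vwa1* (0.98), and closest to *Inhba* were *Pomk*, *Ccdc91* and *Cdc42*, all at 0.98. Of these 9 genes only *Ccdc91* passed the test (log2 fold change -0.29, adjusted p = 0.0403, edgeR). The nearest tested genes to *Inhba*, *Gli3* at 274 kb (0.01, adjusted p = 0.975) and *Sugct* at 826 kb (0.20, adjusted p = 0.838), did not pass.

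**Figure D5:**
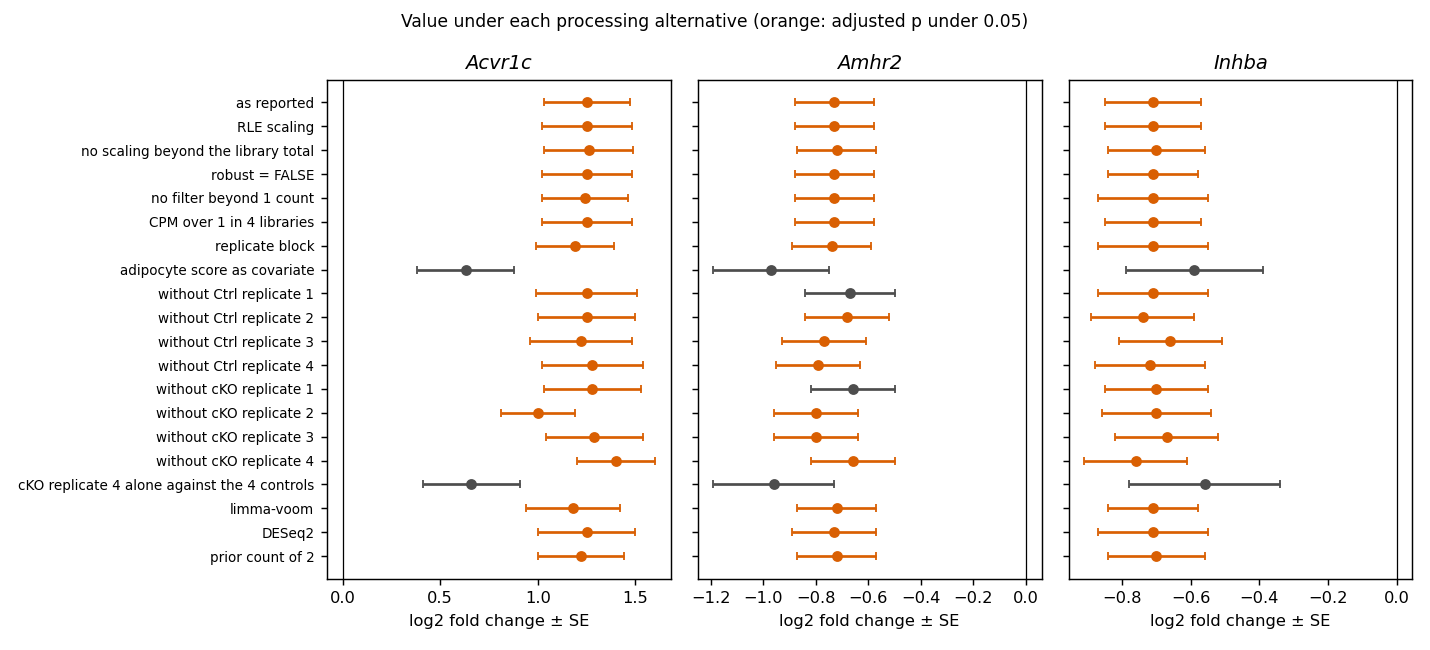
Log2 fold change ± SE (x axis) of *Acvr1c*, *Amhr2* and *Inhba* as reported (top line) and under each other processing, with orange for an adjusted p under 0.05. *Acvr1c* falls from 1.25 to 0.63 with the adipocyte covariate and 0.66 with cKO replicate 4 alone, and no value of the 3 genes crosses 0.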

How the data were processed

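RNA was taken from 8 whole uteri at PD10, with 1 library per mouse and groups taken from the labels. Per the labels, libraries were stranded mRNA libraries (TruSeq). The authors trimmed the reads with Trimmomatic, checked them with FastQC, used HISAT2 for alignment to GRCm38 and featureCounts for counting, and the deposited values used here are these raw counts per Entrez gene. Tool versions, the annotation and the strand setting of counting are not given in the sources used here. The authors also deposited an edgeR comparison (log2 fold changes, log2 CPM, F and p-values) and a table of log2 CPM. Only gene identifiers and symbols were read from the former, and the latter was not used.

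Genes above 0.2 CPM in 4 or more libraries were compared in R 4.3.3 with edgeR 4.0.16 (TMM, glmQLFit with robust = TRUE, glmQLFTest). Differential expression means an adjusted p under 0.05, and, where stated, a fold change over 2. *Amh*, under the filter, was compared by an exact permutation test on log2(CPM + 0.1). SE is the log2 fold change divided by the square root of F, and the 95% interval uses the degrees of freedom of that fit. Exon lengths came from GENCODE M21 and promoter windows from RefSeq (GRCm38.p6), with 8 of the 10 genes matched. The test was checked on simulated counts. Alternatives were other scalings and filters, limma-voom (limma 3.58.1), DESeq2 1.42.0, a replicate block, an adipocyte score (mean of log2(CPM + 0.1) over the markers) as covariate, other fold and prior settings, and leaving out libraries.

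No library pair agreed within sampling noise (chi-square per gene 7.44 to 30.0 over 28 pairs). Limits from counts cover counting error only. The labels give no batch. The 10 genes and all lists were chosen with earlier results of these data known. Named besides them are list genes that passed, *Inha*, *Acvr1b*, *Smad2*, *Smad3* and *Smad4*, list genes beside a result, the 3 genes most alike to each gene that passed, and its neighbours. *Lpl* was among these. *Pmepa1*, *Sp7*, *Mmp2*, *Adipoq*, *Fabp4*, *Zfyve9*, *Smurf2*, *Hoxa10*, the skeletal muscle genes and the genes in the closing section were named after their values were seen. So were the other adipocyte genes besides *Adrb3*. Of the pathway lists, 1 gene is not reported here and was taken off its list.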

Additional observations from a re-analysis of the deposited data

Results flagged for a closer look

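In 53 pathway genes, with 106 groups of 4 libraries, 6 groups held 1 library far from the other 3 by Dixon's test, and chance alone flags about 5% of groups. *Acvr2b* was at 3.22 CPM in cKO replicate 4 and at 4.35 to 4.37 CPM in the other cKO uteri, which also bears on its direction, since the fold change turned negative with that library alone. *Nodal*, a ligand that shares the activin receptors and was under the filter, was at 0.738 CPM in cKO replicate 1 and at 0.0616 to 0.105 CPM in the others. *Smad7*, the inhibitory SMAD, was at 20.6 CPM in Ctrl replicate 2 against 17.0 to 17.4 CPM. *Pmepa1*, an inhibitor of SMAD2/3 signalling, was at 37.2 CPM in Ctrl replicate 2 against 31.2 to 31.9 CPM and at 39.6 CPM in cKO replicate 1 against 34.3 to 35.2 CPM. *Wif1* was at 0.604 CPM in Ctrl replicate 4 against 1.23 to 1.28 CPM, still above every cKO uterus.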

How the results depend on the processing

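With other scalings (all-gene median moved by at most 0.01), robust = FALSE, no filter and limma-voom, the counts and directions given above held their side of the thresholds, as did the single fold changes of the 9 genes with a prior count of 2. The 1 gene of the 10 past both thresholds became 0 with the adipocyte covariate and with cKO replicate 4 alone, 3 with a fold over 1.5, and 0 to 1 when single libraries were left out. The 3 genes with an adjusted p under 0.05 became 0 with the covariate and with cKO replicate 4 alone (*Acvr1c* 0.63 and 0.66, *Amhr2* -0.97 and -0.96, *Inhba* -0.59 and -0.56), and were 2 to 3 when single libraries were left out. Of all genes, 217 passed both thresholds, 139 with a filter of CPM over 1, 48 with the covariate, 22 with cKO replicate 4 alone and 142 to 336 with single libraries left out. Of the other pathway genes 2 passed, 1 with the filter of CPM over 1 (*Id4*), 5 with DESeq2 (*Inha*, *Wfikkn2*, *Id1*, *Id4*, *Wif1*) and 0 with the covariate. With single libraries left out it was 2 to 6, with 6 without cKO replicate 4 (*Inha*, *Bmpr2*, *Zfyve9*, *Smurf2*, *Id4*, *Wif1*). In cKO replicate 4, *Id4* was at 71.1 CPM (45.4 to 54.6 in Ctrl) and *Wif1* at 0.14 CPM (0.604 to 1.28 in Ctrl). *Acvr2b* reversed to -0.22 with the covariate and -0.26 with cKO replicate 4 alone, and was 0.00 to 0.17 when single libraries were left out (0.00 without Ctrl replicate 1). *Inhbb* ran from -0.24 to 0.15 when single libraries were left out, and reversed to 0.15 without Ctrl replicate 2 and 0.01 without cKO replicate 4. *Fst* ran from 0.06 to 0.48 when single libraries were left out and reversed to -0.57 with the covariate and -0.53 with cKO replicate 4 alone. None of these reversed values passed the test, and the causes were not tested. *Amh* was at -0.02 with a pseudocount of 0.5 and at -0.21 to 0.14 when single libraries were left out, above 0 without Ctrl replicate 2 (0.04) and without cKO replicate 3 (0.14). The fits with the covariate and with cKO replicate 4 alone have fewer residual degrees of freedom. Both rest largely on cKO replicate 4, so they are not separate checks. With a replicate block the 10 genes kept 3 calls and 5 other pathway genes passed (*Inha*, *Bmpr2*, *Id1*, *Id4*, *Wif1*). Same-numbered libraries correlated at -0.04 to 0.26, over 0.1 for 2 of 4 numbers, and 3 of 8 libraries correlated best with their own number, so the numbers were not taken to pair the mice. Depth limits *Amh*, at 1 to 5 counts, and the cKO level of *Wif1*.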
